A study of Brassica napus with 9 samples.

Results

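Leaves of drought-stressed rapeseed (*Brassica napus*) were compared with leaves of well-watered plants across all genes that passed a filter on low values, 48615 of the 104592 genes listed. A gene was kept when its FPKM, the number of read pairs on a gene scaled to its length and to the library total, was above 1 in at least 3 of the 6 libraries. All plants were of the wild-type genotype Zhongshuang 11, 4 in a pot, grown in a chamber and sampled at leaf 3, 25 days after sowing. In the drought group (D, 3 libraries) watering was cut back after day 20 so that the soil held 30% of field capacity on the day of sampling. In the check group (CK, 3 libraries) the soil was kept at 80% of field capacity. Both groups received distilled water on the leaves every other day from day 21. The 3 other libraries of the series, from drought-stressed plants given the nanoparticle fullerol, were not used here. Replicates are biological according to the study, but how many plants or pots went into each library is not given in the sources used here.

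A leaf that loses water closes its stomata, fixes less carbon and shifts its metabolism toward small soluble molecules such as proline, sugars and raffinose-family oligosaccharides. Proline is made from glutamate in a few steps and is oxidized back to glutamate in mitochondria. Raffinose is built from sucrose and galactinol, and starch in the chloroplast is broken down to maltose and glucose. *B. napus* carries an A and a C subgenome, so most of these enzymes are encoded by several similar copies. Reads that match more than 1 copy cannot be assigned with certainty, and how they were counted is not given in the sources used here, which leaves the values of single copies uncertain.

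The libraries held between 21939148 and 23703618 read pairs, at which 3 read pairs on 1 kilobase give 0.127 to 0.137 FPKM. The first principal component carried 70.7% of the variance and placed the D libraries between -111 and -88.8, and the CK libraries between 98.1 and 106. The second carried 15.5%, with the D libraries between -23.3 and 24.3 and the CK libraries at -68.1, -19.4 and 86.2, CK3 being the highest. Correlations of log2(FPKM + 1) between libraries lay between 0.962 and 0.966 within D, between 0.903 and 0.968 within CK, where the lowest was CK1 with CK3, and between 0.782 and 0.840 across the groups. The median SD of a gene was 0.19 log2 units in D and 0.24 in CK. Marker genes of leaf tissue have no names in the files, and the tissue label was not checked against them.

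Limma's test on log2(FPKM + 1) with Benjamini-Hochberg adjustment called 16183 differentially expressed genes (DEGs) at an adjusted p under 0.05, which is 33.3% of the genes tested. Of these, 6197 genes were up-regulated in D, 12.7% of the genes tested, and 9986 were down-regulated, 20.5%. An unadjusted p under 0.05 was reached by 21788 genes. The D and CK libraries did not overlap in 24588 genes, 50.6% of the genes tested. The median log2 difference of all genes tested was -0.10, so that the typical gene lay slightly lower in D on the FPKM scale. This balance depends on the scaling between libraries. Median-of-ratios scaling brought the median to -0.01 and gave 8262 up-regulated and 8669 down-regulated DEGs, and quantile normalization brought it to 0.01 with 8284 up-regulated and 8415 down-regulated. Up-regulated genes made up 38.3% of the DEGs with FPKM as deposited, 48.8% after median-of-ratios scaling and 49.6% after quantile normalization. Without CK3, 7456 genes were up-regulated and 9805 down-regulated. The total was 10229 DEGs without CK2 and 10482 without D3. At the other end of the range, 17261 were called without CK3.

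**Figure D1:**
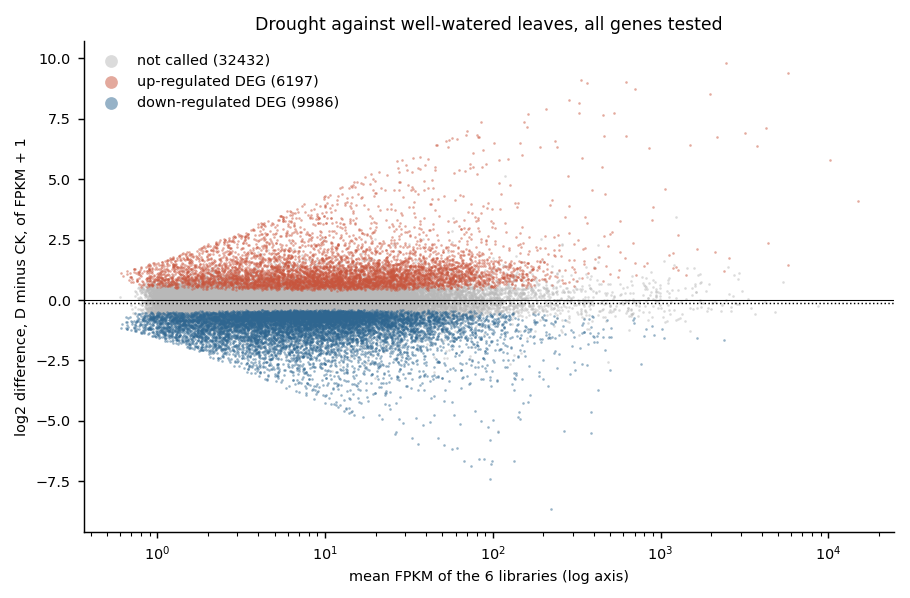
Log2 difference between D and CK of FPKM + 1 (y axis) against mean FPKM over the 6 libraries (x axis, log scale), 1 point per gene tested. Red points are the 6197 up-regulated DEGs, blue points the 9986 down-regulated DEGs and gray points the remaining genes. The dotted line is the median of all genes at -0.10, and the largest rises reach higher levels than the largest falls.

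With FPKM as deposited, the largest changes were more often rises, while changes of moderate size were more often falls. Counts by size are given for this scaling only, and the balance of rises and falls depends on the scaling. At a log2 difference of at least 1 there were 3279 up-regulated and 4800 down-regulated DEGs, and at a difference of at least 2 there were 858 and 1065 in the same order. From a difference of 3 on the order turned, with 335 up-regulated and 275 down-regulated. At a difference of 5 the counts were 80 up-regulated and 26 down-regulated. Among the up-regulated DEGs, 221 had no more than 3 reads in any CK library, and among the down-regulated DEGs, 218 had no more than 3 reads in any D library.

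The share of DEGs varied with the expression level, without a steady rise or fall across the classes. Among genes with a mean FPKM between 2 and 5, 8.61% were up-regulated and 19.0% down-regulated. Between 50 and 100 FPKM the shares were 28.4% up-regulated and 20.1% down-regulated, and above 500 FPKM 18.3% and 5.96%. With median-of-ratios scaling, genes between 2 and 5 FPKM still had fewer up-regulated (11.9%) than down-regulated DEGs (16.2%), and genes between 50 and 100 FPKM more (33.7% against 18.0%). In the class between 20 and 50 FPKM the order turned with the scaling, at 20.9% up-regulated and 22.4% down-regulated with FPKM as deposited, and 26.6% and 20.2% after scaling. Since an average over both groups contains the drought value itself, the level and the change share their data.

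The transcriptome of D leaves rested on fewer genes. The 10 most abundant genes held 10.3%, 10.5% and 7.66% of the summed FPKM in D1, D2 and D3, against 5.30%, 4.85% and 4.0% in CK1, CK2 and CK3. All 3 D libraries lay above all 3 CK libraries. In D, 1001, 845 and 1331 genes accounted for 50% of the summed FPKM, against 1452, 1532 and 2306 genes in CK. Again the groups did not overlap, and CK3 had the flattest distribution of the 6 libraries. The genes that were up-regulated took 26.1% to 27.4% of the reads on genes in D, against 8.25% to 8.34% in CK. The down-regulated ones took 10.4% to 11.0% in D, against 25.2% to 29.5% in CK. These last shares are a description, since the calls chose the genes. As each library is scaled to its own total, a larger share held by some genes lowers the FPKM of all others. In such bulk samples, fewer cells of a type and less RNA per cell cannot be told apart.

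**Figure D2:**
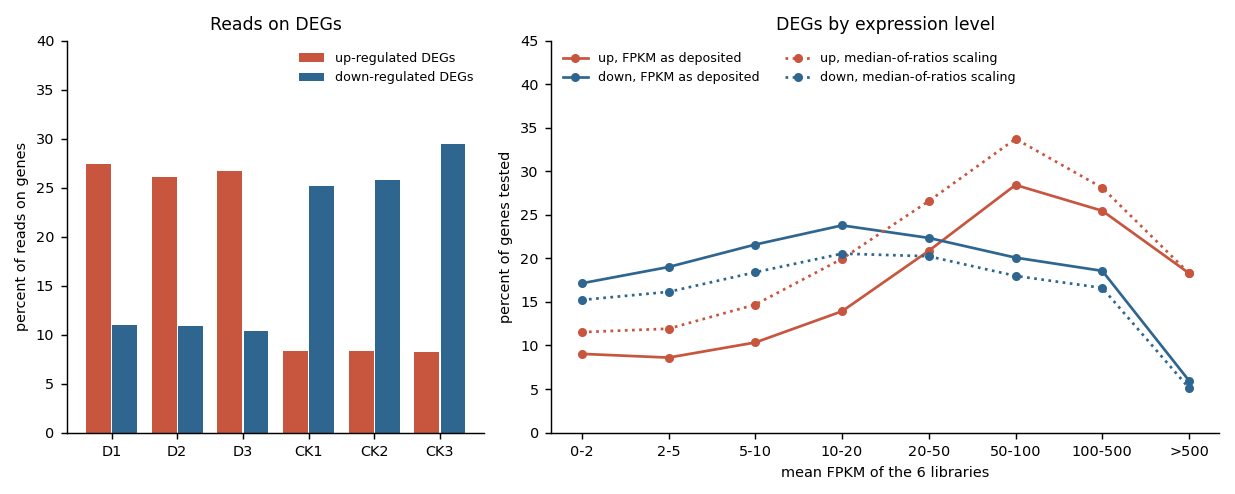
Left, the percentage of each library's reads on genes (y axis) that fell on up-regulated (red) and down-regulated (blue) DEGs in the D and CK libraries (x axis). Right, the percentage of genes tested (y axis) called up-regulated or down-regulated in classes of mean FPKM (x axis), with FPKM as deposited (solid lines) and after median-of-ratios scaling (dotted lines). Up-regulated DEGs outnumbered down-regulated ones above 50 FPKM under both scalings.

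Among DEGs with non-overlapping libraries and a mean of at least 10 FPKM in the higher group, the files name neither the 2 with the largest rise nor the 2 with the largest fall. BnaA02g15910D had 5707, 3986 and 4987 FPKM in D1, D2 and D3, against 1.67, 2.40 and 16.5 FPKM in CK1, CK2 and CK3, a rise of 9.80 ± 0.66 (SE) on the log2(FPKM + 1) scale (limma adjusted p = 0.000188). BnaA03g09530D had 13050, 14213 and 7123 FPKM in D, against 30.9, 8.36 and 13.0 FPKM in CK, a rise of 9.41 ± 0.49 (limma adjusted p = 7.67e-05). In both genes every D library was far above every CK library, and the CK libraries were spread over several-fold. BnaA09g49730D had 0.141, 0 and 0.143 FPKM in D, against 368, 455 and 509 FPKM in CK, and its fitted log2 difference was -8.66 ± 0.17 (limma adjusted p = 2.85e-06). With 2 reads in all 3 D libraries and 9197 in the CK libraries, the CK to D ratio was 4650, with a 95% exact counting interval from 1287 to 38404. BnaA04g00240D had 0, 0.141 and 0.139 FPKM in D, against 134, 184 and 258 FPKM in CK, a log2 difference of -7.42 ± 0.24 (limma adjusted p = 1.19e-05). Its 2 reads in D against 4077 in CK gave a ratio of 2061 (95% exact counting interval 570 to 17028). For both genes the interval covers counting error only.

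For genes with a known role, a list of carbon, nitrogen and phenylpropanoid enzymes from the study was used, with 132 identifiers and 74 symbols. Of these, 120 passed the filter, 58 were up-regulated and 51 down-regulated, or 90.8% of those tested against the 33.3% called among all genes. The study drew the list from genes that differed between its groups, these libraries included, so this count is no independent evidence of a response. The same holds for the counts of its pathway groups below. Among all genes tested, 12.7% were up-regulated and 20.5% down-regulated. The median log2 difference of the list was 0.56, against -0.10 for all genes tested. The 12 identifiers below the filter are named with their families. Leaving out 1 library left between 45 (without CK2) and 59 up-regulated genes, and between 39 (without D3) and 51 down-regulated genes. In all 6 of these fits 79 of the 109 calls were kept, 13 were lost in 1 or 2 of the fits, 5 in 3 and 12 in at least 4. No call of the list turned its direction in any alternative.

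**Figure D3:**
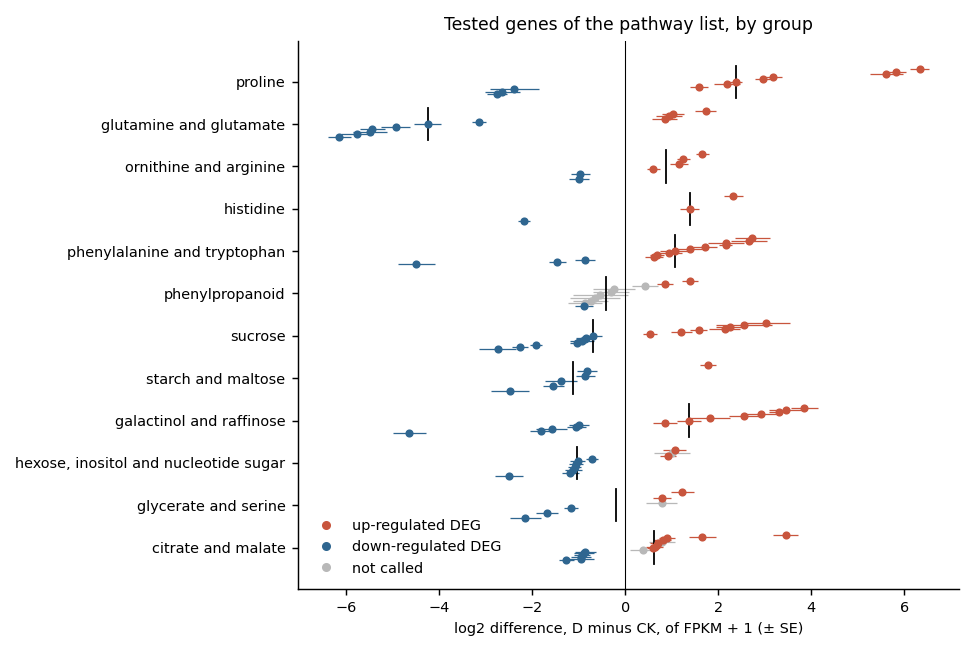
Log2 difference between D and CK of FPKM + 1 with its standard error (x axis) for the 120 tested genes of the pathway list, in 12 groups (y axis). Red points are up-regulated DEGs, blue points down-regulated DEGs and gray points genes that were not called, and the black bar is the median of the group. Proline genes reach 6.33 to the right, and cytosolic glutamine synthetases -6.15 to the left.

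**Figure D4:**
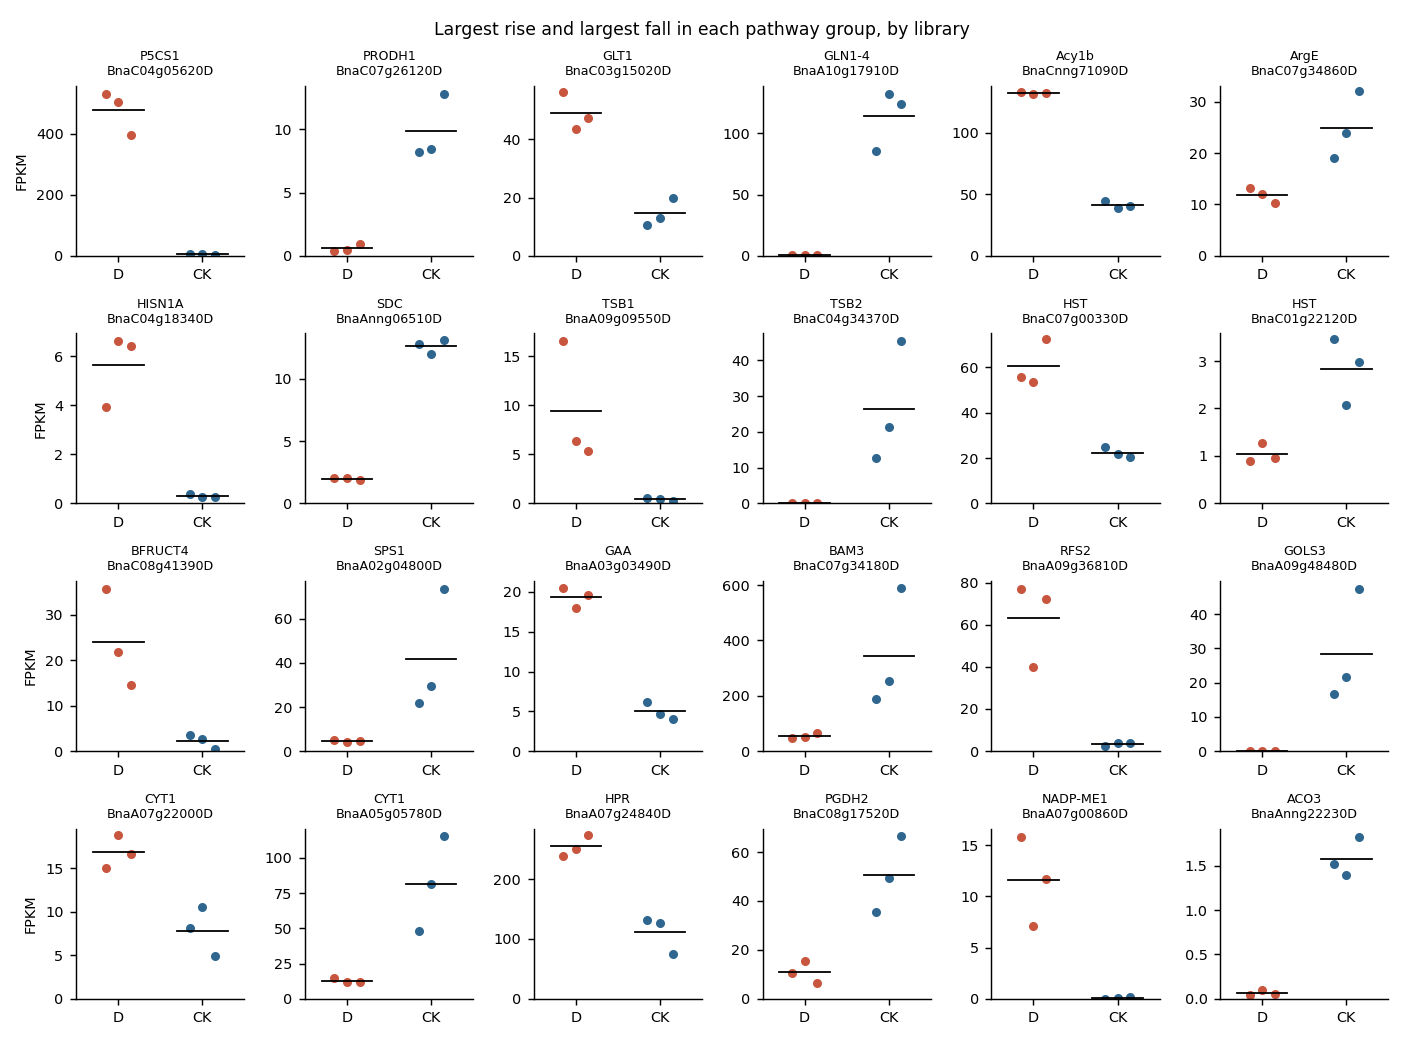
FPKM (y axis, from 0) in each of the D libraries (red) and CK libraries (blue) for the gene with the largest rise and the gene with the largest fall in each of the 12 pathway groups. Points within a group are libraries 1, 2 and 3 from left to right and the black bar is the mean. The D and CK libraries do not overlap in any of the 24 panels. These genes were chosen as the largest called changes, and 50.6% of all genes tested showed no overlap.

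Transcripts for proline synthesis rose strongly in D and those for the first step of proline breakdown fell. Of 11 tested genes of this selected list, 8 were up-regulated and 3 down-regulated, with a median log2 difference of 2.38. The shares among all genes tested were 12.7% and 20.5%. *P5CS1* and *P5CS2* encode delta-1-pyrroline-5-carboxylate synthase, which carries out the committed step from glutamate. *P5CS1* BnaC04g05620D had 532, 504 and 397 FPKM in D1, D2 and D3, against 6.25, 4.80 and 3.85 FPKM in CK1, CK2 and CK3. The lowest D library was far above the highest CK library, the log2 difference was 6.33 ± 0.20 (limma adjusted p = 1.19e-05) and the ratio of the means was 96.2. The other 5 copies of *P5CS1* and *P5CS2* rose by 1.58 to 5.81 on the log2 scale, the *P5CS2* copy BnaC08g26550D least. Summed over the 6 identifiers, the level of P5CS transcripts was 928 ± 147 FPKM in D and 26.4 ± 1.49 FPKM in CK (SD, n = 3 each). *P5CS1* copy BnaA04g22810D had 6.84, 6.81 and 11.3 FPKM in D, against no more than 1 read in any CK library.

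*PRODH1* encodes proline dehydrogenase, the first enzyme of proline oxidation. The copy BnaC07g26120D had 0.385, 0.484 and 0.912 FPKM in D1, D2 and D3, against 8.24, 8.46 and 12.8 FPKM in CK1, CK2 and CK3. Its groups did not overlap, and the log2 difference was -2.76 ± 0.22 (limma adjusted p = 0.000341). The 2 other *PRODH1* copies fell by 2.64 and 2.39. The copy with the smaller fall, BnaC02g38230D, had 14.0 FPKM in CK3 against 2.38 and 2.90 FPKM in CK1 and CK2, and without CK3 its log2 difference was -1.70 (limma adjusted p = 0.00132). *PRODH2* BnaAnng37880D had no read in D and at most 15 reads in a CK library, and was below the filter. The second enzyme of the pathway moved the other way. *P5CDH*, delta-1-pyrroline-5-carboxylate dehydrogenase, was up-regulated in both copies, by 2.38 ± 0.14 and 2.19 ± 0.27, with a summed level of 128 ± 4.34 FPKM in D and 26.5 ± 7.64 FPKM in CK (SD, n = 3 each). Breakdown enzymes therefore did not share 1 direction.

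Cytosolic glutamine synthetase, which assimilates ammonium into glutamine, fell steeply in 6 of its 7 tested copies. The group of 11 tested genes held 4 up-regulated and 7 down-regulated DEGs with a median log2 difference of -4.25. *GLN1-4* BnaA10g17910D had 1.06, 0.527 and 0.28 FPKM in D1, D2 and D3, against 85.5, 132 and 124 FPKM in CK1, CK2 and CK3. No library of D came near those of CK, and the log2 difference was -6.15 ± 0.24 (limma adjusted p = 2.36e-05). The 3 other *GLN1-4* copies and both *GLN1-1* copies fell by 4.25 to 5.78. The only called copy with a rise was *GLN1-3* BnaA05g22420D, at 38.1, 41.3 and 27.0 FPKM in D against 14.0, 15.1 and 22.1 FPKM in CK, a log2 difference of 1.02 ± 0.23 (limma adjusted p = 0.0147), which was lost without CK2, D1 or D2. *GLN1-3* BnaCnng57900D was below the filter, with at most 2 reads in a D library and 15 in a CK library. Over all 8 identifiers the summed level was 88.7 ± 15.1 FPKM in D and 2159 ± 562 FPKM in CK (SD, n = 3 each). *GLN1-3* made up 35.5 FPKM of this sum in D and 17.6 FPKM in CK.

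NADH-dependent glutamate synthase, encoded by *GLT1*, forms glutamate from glutamine and 2-oxoglutarate and was called up-regulated in its 3 identifiers, 2 of them narrowly. *GLT1* BnaC03g15020D had 56.1, 43.6 and 47.4 FPKM in D1, D2 and D3, against 10.7, 13.0 and 19.9 FPKM in CK1, CK2 and CK3. The libraries did not overlap and the log2 difference was 1.72 ± 0.23 (limma adjusted p = 0.00223). BnaC03g15030D, the next identifier on the chromosome, and BnaA03g12250D rose by 0.94 and 0.85, and in BnaC03g15030D D3, at 10.2 FPKM, lay just below CK3, at 10.3 FPKM. Both calls were lost without the filter and with the replicate block, BnaC03g15030D in 4 and BnaA03g12250D in 5 of the 6 fits without 1 library. The lengths solved from the FPKM digits were 1998 bases for BnaC03g15020D, 3459 for BnaC03g15030D and 6489 for BnaA03g12250D. Whether the neighboring C03 identifiers are parts of 1 gene was not tested. *GSH3*, annotated as a probable glutamate dehydrogenase, had at most 2 reads in a D library, against 7.95, 7.27 and 8.92 FPKM in CK, and was down-regulated (log2 difference -3.14 ± 0.15, limma adjusted p = 5.34e-05). Without CK2, 1 of the 4 rises of this group was called, while all 7 falls were called in each fit without 1 library.

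Among genes of ornithine and arginine metabolism, 4 of 6 tested were up-regulated and 2 down-regulated, and the median log2 difference was 0.88. *Acy1b* BnaCnng71090D, annotated as an aminoacylase, had 133, 131 and 132 FPKM in D1, D2 and D3, against 44.5, 39.0 and 40.6 FPKM in CK1, CK2 and CK3, with little spread in either group (log2 difference 1.65 ± 0.14, limma adjusted p = 0.000433). The second *Acy1b* gene rose by 0.60, a call lost without D1, and both *OTC* genes, for the ornithine carbamoyltransferase that forms citrulline, rose by 1.16 and 1.25. *ArgE* BnaC07g34860D encodes acetylornithine deacetylase, which releases ornithine. It had 13.3, 12.0 and 10.2 FPKM in D, against 18.9, 24.0 and 32.0 FPKM in CK. The groups did not overlap and it fell by 0.99 ± 0.21 on the log2 scale (limma adjusted p = 0.0116). *ArgJ*, for a bifunctional enzyme of the same route, fell by 0.96.

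The smallest group held genes of histidine synthesis and of serine decarboxylation, 2 up-regulated and 1 down-regulated of 3 tested. All 3 also stand in the study's longer list for histidine metabolism, where 3 genes were up-regulated and 10 down-regulated of 16 tested, with a median log2 difference of -1.16. *HISN1A* BnaC04g18340D encodes ATP phosphoribosyltransferase, the entry enzyme of histidine synthesis. It had 3.94, 6.62 and 6.42 FPKM in D1, D2 and D3, against 0.381, 0.276 and 0.261 FPKM in CK1, CK2 and CK3. That is a log2 difference of 2.32 ± 0.21 (limma adjusted p = 0.000496) with no overlap. *HDH*, histidinol dehydrogenase of the last step, rose by 1.39 ± 0.20. *SDC* BnaAnng06510D, serine decarboxylase, had 2.08, 2.02 and 1.90 FPKM in D, against 12.8, 12.0 and 13.1 FPKM in CK. Replicates of both groups were close together, and the log2 difference was -2.18 ± 0.13 (limma adjusted p = 0.000123).

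Of 13 tested genes of phenylalanine and tryptophan synthesis, 10 were up-regulated and 3 down-regulated, with a median log2 difference of 1.08. Without CK2 the up-regulated genes numbered 6. *TSB1* and *TSB2* both encode the beta chain of tryptophan synthase, which joins indole and serine. All 6 *TSB1* identifiers rose, by 1.38 to 2.73. *TSB1* BnaA09g09550D had 16.5, 6.32 and 5.33 FPKM in D1, D2 and D3, against 0.607, 0.445 and 0.206 FPKM in CK1, CK2 and CK3, with D1 the highest (log2 difference 2.73 ± 0.38, limma adjusted p = 0.00234). *TSB2* BnaC04g34370D went the opposite way, with 0.0843, 0.0578 and 0.0855 FPKM in D, against 12.7, 21.4 and 45.3 FPKM in CK, CK3 being the highest. Its log2 difference was -4.49 ± 0.40 (limma adjusted p = 0.000505), and -4.02 without CK3. The 8 reads in D against 2706 in CK gave a CK to D ratio of 342 (95% exact counting interval 173 to 793). This interval covers counting error only, not the spread between libraries. Summed over identifiers, *TSB1* was at 51.4 ± 25.3 FPKM in D and 5.48 ± 1.18 FPKM in CK, and *TSB2* at 0.648 ± 0.289 FPKM in D and 28.2 ± 17.3 FPKM in CK (SD, n = 3 each). The second *TSB2* copy, BnaA04g08710D, was below the filter and had its D libraries below its CK libraries. Among the *TSB1* identifiers, 4 form 2 pairs of consecutive numbers, on A08 and on A09.

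Arogenate dehydratases, which complete phenylalanine synthesis, also differed between members. *ADT1* and both *ADT2* copies rose by 0.62 to 0.95, and both *ADT5* copies fell by 0.87 and 1.46. *ADT1* was lost in 4 of the 6 fits without 1 library, *ADT2* BnaA05g29990D in 5 and *ADT2* BnaA09g56680D in 2, and the first 2 of these also without the filter. *ADT5* BnaA02g05780D was lost in 3. *ADT4* was below the filter with 0.109, 0.299 and 0.221 FPKM in D, against 3.03, 1.78 and 0.942 FPKM in CK. *CORI3*, aminotransferase-like, rose by 1.08 ± 0.33 (limma adjusted p = 0.0434), and this call was lost in 5 of the 6 fits without 1 library (limma adjusted p between 0.0811 and 0.119), without the filter, with the replicate block and under quantile normalization.

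In the phenylpropanoid group, 2 genes were up-regulated and 1 was down-regulated among 10 tested, which is close to the 33.3% called among all genes, and the median log2 difference was -0.43. Phenylalanine ammonia-lyase, the entry enzyme, and cinnamate 4-hydroxylase were not called in any of their 7 tested copies (*PAL1*, *PAL2* and *CYP73A5*), with log2 differences from -0.87 to 0.42. CK libraries differed widely here. *PAL1* BnaA05g07370D had 1.77, 2.55 and 2.32 FPKM in D, against 10.4, 3.84 and 0.798 FPKM in CK, so that the CK values lay on both sides of D. Without CK3 this gene and *CYP73A5* BnaA04g17570D passed the threshold as down-regulated, *CYP73A5* BnaA03g14010D did so without CK2, and *PAL2* passed it as up-regulated without CK1. *CYP75B1*, flavonoid 3'-monooxygenase, was below the filter in both copies, and BnaA10g23330D had 0.0825, 0.0283 and 0.195 FPKM in D, against 0.91, 0.742 and 7.60 FPKM in CK.

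*HST*, hydroxycinnamoyl transferase of lignin precursor synthesis, was called in both directions. BnaC07g00330D had 55.6, 53.7 and 72.4 FPKM in D1, D2 and D3, against 24.7, 21.6 and 20.3 FPKM in CK1, CK2 and CK3, a rise of 1.40 ± 0.17 on the log2 scale (limma adjusted p = 0.00149). Its counterpart BnaA07g00390D rose by 0.85. BnaC01g22120D, expressed at a far lower level, had 0.886, 1.28 and 0.965 FPKM in D, against 3.45, 2.07 and 2.97 FPKM in CK, a log2 difference of -0.89 ± 0.19 (limma adjusted p = 0.0121). The libraries overlapped in none of the 3 copies, which was also so in 50.6% of all genes tested. The summed *HST* level was 112 ± 17.5 FPKM in D and 52.4 ± 6.81 FPKM in CK (SD, n = 3 each).

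Genes of sucrose synthesis and cleavage moved in both directions, 7 up-regulated and 8 down-regulated of 15 tested, with a median log2 difference of -0.69. Without D3, 4 of the 8 falls were called. Sucrose-phosphate synthase forms the precursor of sucrose. *SPS1* BnaA02g04800D had 4.99, 4.15 and 4.51 FPKM in D1, D2 and D3, against 21.6, 29.4 and 73.7 FPKM in CK1, CK2 and CK3. The CK libraries lay apart from each other, and all were above D (log2 difference -2.75 ± 0.41, limma adjusted p = 0.00294, and -2.24 without CK3). *SPS4* fell by 1.04, while *SPS2* and *SPS3*, with means below 4 FPKM in both groups, rose by 1.58 and 0.54, the call of *SPS3* being lost in 5 of the 6 fits without 1 library. Summed over the 4 genes, SPS transcripts stood at 25.6 ± 1.34 FPKM in D and 76.2 ± 29.4 FPKM in CK (SD, n = 3 each).

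Vacuolar and cell-wall invertases, which split sucrose into glucose and fructose, differed between members. *BFRUCT4* BnaC08g41390D, a vacuolar invertase, had 35.6, 21.7 and 14.6 FPKM in D1, D2 and D3, against 3.65, 2.73 and 0.357 FPKM in CK1, CK2 and CK3. CK3 was the lowest library and the log2 difference was 3.04 ± 0.50 (limma adjusted p = 0.00444), or 2.50 without CK3. All 3 *BFRUCT4* copies were up-regulated, by 2.26 to 3.04, with a summed level of 68.1 ± 15.8 FPKM in D and 10.1 ± 6.74 FPKM in CK (SD, n = 3 each). Cell-wall invertases *CWINV1* and *CWINV3* fell by 1.91 and 2.27, and *CWINV5* rose by 1.21. Both *BFRUCT3* copies and *CWINV1* BnaC01g37450D were below the filter, with no more than 1 read in any D library. The summed *BFRUCT3* level was 0.0151 ± 0.0131 FPKM in D and 1.11 ± 0.701 FPKM in CK (SD, n = 3 each). Among sucrose synthases, which cleave sucrose reversibly, *SUS3* rose by 2.14 and *SUS1*, *SUS5* (2 copies) and *SUS6* fell by 0.69 to 0.93. Among these falls, *SUS1* lost its call in 5 of the 6 fits without 1 library and *SUS5* BnaA05g12940D in 4, and both under quantile normalization and with the replicate block. *SUS5* BnaCnng74430D lost it in 2 and *SUS6* in 1. *BFRUCT4* BnaA09g47290D was not called without D1.

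Of 6 tested genes of starch and maltose metabolism, 5 fell and 1 rose, and the median log2 difference was -1.12. *BAM3* BnaC07g34180D encodes beta-amylase, which releases maltose from starch in the chloroplast. It had 47.4, 50.4 and 65.1 FPKM in D1, D2 and D3, against 190, 255 and 588 FPKM in CK1, CK2 and CK3. D was lower throughout, CK3 stood above the other CK libraries, and the log2 difference was -2.48 ± 0.40 (limma adjusted p = 0.0042), or -2.01 without CK3. *DPE2*, the glucanotransferase that uses maltose in the cytosol, fell by 1.55. *BAM2*, the starch branching enzyme *SBE2.1* and the alpha-glucosidase *GAA2* fell by 0.82, 0.86 and 1.38, and their calls were lost in 3, 2 and 2 of the 6 fits without 1 library. *GAA* BnaA03g03490D, also an alpha-glucosidase, had 20.5, 18.0 and 19.7 FPKM in D, against 6.16, 4.72 and 4.08 FPKM in CK, and rose by 1.78 ± 0.17 (limma adjusted p = 0.000599). Without D3, 2 of the 5 falls were called.

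In the route to galactinol and raffinose, members of both transferase families took opposite directions. Of 13 tested genes 8 were up-regulated and 5 down-regulated, with a median log2 difference of 1.37. Galactinol synthase makes the galactosyl donor of the pathway. Both *GOLS2* copies rose, by 3.30 ± 0.20 and 2.56 ± 0.33, to a summed 18.5 ± 5.35 FPKM in D, against 0.614 ± 0.349 FPKM in CK (SD, n = 3 each). Both *GOLS3* copies fell. *GOLS3* BnaA09g48480D had 0.0425, 0.175 and 0 FPKM in D1, D2 and D3, against 16.6, 21.5 and 47.3 FPKM in CK1, CK2 and CK3. The log2 difference was -4.64 ± 0.35 (limma adjusted p = 0.000292), or -4.22 without CK3, which was the highest library. Its 5 reads in D against 1926 in CK gave a CK to D ratio of 390 (95% exact counting interval 167 to 1201). Here too the interval covers counting error only, not the spread between libraries. *GOLS1* was below the filter, with 1.08, 0.64 and 1.52 FPKM in D, against 0.291, 0.083 and 0.448 FPKM in CK. The summed level of the 5 galactinol synthase identifiers was 22.9, 22.1 and 13.9 FPKM in D, against 18.2, 24.2 and 52.7 FPKM in CK, and here the groups overlapped.

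The *RFS* genes are annotated as probable galactinol-sucrose galactosyltransferases, enzymes that transfer galactose to sucrose to form raffinose. Whether each member has this activity was not tested. *RFS2* BnaA09g36810D had 77.0, 40.2 and 72.2 FPKM in D1, D2 and D3, against 2.30, 3.78 and 3.99 FPKM in CK1, CK2 and CK3, well apart, and rose by 3.85 ± 0.29 (limma adjusted p = 0.000267). The second *RFS2* copy rose by 3.47 and the 4 *RFS6* copies by 0.85 to 2.92, whereas both *RFS5* copies fell by 1.81 and 1.0. *RFS6* BnaC09g37510D, with the smallest of these rises, lost its call in all 6 fits without 1 library (limma adjusted p of at least 0.0537), *RFS6* BnaA02g04780D lost it without D1 and without D3, and *RFS5* BnaC04g56100D without D3. Over the 8 identifiers the summed level was 204 ± 72.4 FPKM in D and 31.3 ± 10.2 FPKM in CK (SD, n = 3 each). By symbol, the mean sums in D and CK were 151 and 10.2 FPKM for *RFS2* and 50.1 and 9.34 FPKM for *RFS6*. For *RFS5* they were 3.05 and 11.8 FPKM, so the higher total in D came from *RFS2* and *RFS6*. *AGAL1*, an alpha-galactosidase that removes galactose again, fell by 1.05 ± 0.20.

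Among genes of hexose, inositol and nucleotide sugar metabolism, 7 of 10 tested fell and 2 rose, with a median log2 difference of -1.05. *CYT1* encodes mannose-1-phosphate guanylyltransferase, which makes GDP-mannose for cell walls, glycoproteins and ascorbate. It had 1 up-regulated and 3 down-regulated copies. BnaA05g05780D had 14.6, 11.8 and 12.0 FPKM in D1, D2 and D3, against 48.1, 81.6 and 116 FPKM in CK1, CK2 and CK3, a log2 difference of -2.51 ± 0.30 (limma adjusted p = 0.00146). BnaA07g22000D had 15.1, 18.8 and 16.6 FPKM in D, against 8.11, 10.5 and 4.92 FPKM in CK, a log2 difference of 1.06 ± 0.25 (limma adjusted p = 0.0168). The groups did not overlap in either copy, and the rise was not called without D2 (adjusted p = 0.0587) or without D3 (adjusted p = 0.0548), again with limma. In droughted leaves both copies were thus at similar levels, while they were several-fold apart in well-watered leaves.

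A pair of *CYT1* copies lie next to *P5CS1* copies by their identifiers, which was noticed after the values were seen. *CYT1* BnaC04g46620D fell by 1.03 and the next identifier, *P5CS1* BnaC04g46630D, rose by 5.61. On A05, *CYT1* BnaA05g05780D fell by 2.51 and *P5CS1* BnaA05g05760D, 2 identifiers away, rose by 5.81. Among other members, both hexokinase 1 (*HXK1*) copies fell by 0.72 and 1.07, and both copies listed as *MUR2* fell by 1.11 and 1.09. In Arabidopsis this symbol stands for a fucosyltransferase that acts on cell-wall xyloglucan. The paper's text instead names a drought-lowered *MUR1*, for a GDP-mannose dehydratase, and the difference was not resolved. *IMPL1*, an inositol monophosphatase, rose by 0.92 ± 0.17. *MIOX1*, myo-inositol oxygenase, was not called (log2 difference 1.0 ± 0.39, limma adjusted p = 0.0855), and passed the threshold without CK3. *HXK3* and *MIOX2* were below the filter and had every D library below every CK library.

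Of 6 tested genes of glycerate and serine synthesis, 2 were up-regulated and 3 down-regulated, with a median log2 difference of -0.19. *HPR* BnaA07g24840D encodes the hydroxypyruvate reductase of photorespiration, which forms glycerate in peroxisomes. It had 239, 251 and 275 FPKM in D1, D2 and D3, against 132, 127 and 75.6 FPKM in CK1, CK2 and CK3, a rise of 1.22 ± 0.25 (limma adjusted p = 0.00979) or 0.97 without CK3, the lowest library. *HPR2*, a cytosolic form in Arabidopsis, fell by 1.17 ± 0.15. *PGDH2* BnaC08g17520D encodes phosphoglycerate dehydrogenase, the entry into the phosphorylated route to serine. It had 10.5, 15.4 and 6.56 FPKM in D, against 35.7, 49.3 and 66.6 FPKM in CK, a log2 difference of -2.15 ± 0.33 (limma adjusted p = 0.00335). Neither gene's groups overlapped. The second *PGDH2* copy fell by 1.68, and of 2 *PGDH1* copies 1 rose by 0.79 (not called without CK2, D2 or D3) and the other, at 0.78 ± 0.33, was not called with all libraries. Median-of-ratios scaling and the fit without CK3 called it up-regulated.

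Aconitase and isocitrate dehydrogenase fell while malate enzymes rose, with 8 up-regulated and 6 down-regulated of 16 tested genes and a median log2 difference of 0.61. Without CK2, 5 of the 8 rises were called, and without D3, 3 of the 6 falls. Aconitase, which turns citrate into isocitrate, was down-regulated in *ACO1* and in both copies of *ACO3*, by 0.86 to 1.27. The call of *ACO1* was lost in 4 of the 6 fits without 1 library, and that of *ACO3* BnaA08g14220D without D3. *ACO3* BnaAnng22230D had 0.0424, 0.102 and 0.0574 FPKM in D1, D2 and D3, against 1.52, 1.40 and 1.83 FPKM in CK1, CK2 and CK3, a log2 difference of -1.27 ± 0.16 (limma adjusted p = 0.00161). At these low levels the log2(FPKM + 1) scale understates the ratio of the means, which was 23.5 in favor of CK. *CICDH*, cytosolic NADP-isocitrate dehydrogenase, fell by 0.94. *ACLB-2*, a chain of ATP-citrate lyase, and the citrate synthase *CSY3* were not called (log2 differences 0.39 ± 0.28 and 0.79 ± 0.29), though *CSY3* was called up-regulated under both scalings and without CK3.

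*NADP-ME1* encodes NADP-malic enzyme, which oxidizes malate to pyruvate. BnaA07g00860D had 15.8, 7.10 and 11.7 FPKM in D1, D2 and D3, against 0.0242, 0.0965 and 0.182 FPKM in CK1, CK2 and CK3, where the highest library had 7 reads. It rose by 3.45 ± 0.27 (limma adjusted p = 0.000313), and its second copy by 1.65. All 6 *MDH1* genes, for malate dehydrogenase, rose moderately by 0.59 to 0.89, though 4 of them were not called in at least 1 fit without 1 library, with a summed level of 337 ± 19.4 FPKM in D and 197 ± 13.6 FPKM in CK (SD, n = 3 each).

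Within the study's list, copies of 1 symbol mostly moved together. Of the 31 symbols with at least 2 tested copies, 14 had every copy up-regulated and 12 every copy down-regulated. *CYT1* and *HST* were called in both directions, *PAL1* and *CYP73A5* had no called copy, and *PGDH1* had 1 called and 1 uncalled copy. The list was drawn from genes that differed between the study's groups, and 90.8% of its tested genes were called, against 33.3% of all genes. Copies without a response may be missing from it, so these counts are no independent evidence that copies respond alike. Shared reads between similar copies can make them look alike, and their part in these counts was not tested. Between subgenomes the shares were close. On the A subgenome 13.1% of 21752 tested genes were up-regulated and 21.6% down-regulated, and on the C subgenome 12.6% and 20.4% of 24323 genes. Loci outside the gene models had fewer calls, 10.3% up-regulated and 13.2% down-regulated of 2430. Across the 19 numbered chromosomes the up-regulated share ranged from 12.0% to 14.5% and the down-regulated share from 18.6% to 23.4%.

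Genes with consecutive identifiers changed more alike than genes further apart. Over 22774 pairs of consecutive tested genes, the correlation of the log2 differences was 0.11 as a description across genes, which are not independent replicates. It was 0.04 for genes 2 positions apart and 0.02 for genes 3 apart. In 2923 consecutive pairs both genes were DEGs, and 62.5% of these had the same direction, where the overall mix of rises and falls would give 52.7% for unrelated genes. Tandem copies that share reads belong to these pairs, and their part was not tested.

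The study also grouped its drought-responsive genes by metabolic pathway. Of these lists, 18 could be read whole. They cover 216 different tested genes, 97 up-regulated and 108 down-regulated, of which 14 also stand in the list above. Their genes were selected on these libraries as differing between D and CK, so only the direction within a list is described, and it is not independent evidence. Of the lists, 6 had a median above 0 and 12 a median below 0. The list for porphyrin and chlorophyll metabolism stood furthest up, with 22 of 25 tested genes up-regulated, 1 down-regulated and a median log2 difference of 1.18. Without D3, 15 of these were up-regulated. Aminoacyl-tRNA biosynthesis, which charges tRNAs for translation, had 18 of 22 up-regulated and 4 down-regulated (median 0.72), with 11 up-regulated without CK2. Biotin metabolism had 13 of 16 up-regulated (median 1.05), and C5-branched dibasic acid metabolism 10 of 12 (median 0.82).

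Lists that fell included linoleic acid metabolism, with 14 of 16 tested genes down-regulated and a median log2 difference of -1.21. Ascorbate and aldarate metabolism, which covers the antioxidant ascorbate, had 17 of 25 down-regulated and 6 up-regulated (median -1.02). Nitrogen metabolism had 17 of 25 down-regulated and 7 up-regulated (median -1.48), 11 of its members being the glutamine synthetase, glutamate synthase and *GSH3* genes described above. Without CK2, 2 of its 7 rises were called. Zeatin biosynthesis, for a cytokinin hormone, had all 3 tested genes of 6 down-regulated, and ABC transporters all 6 tested of 15, which became 2 without CK2. Ether lipid metabolism had 11 of 16 down-regulated and 5 up-regulated (median -1.12), and without CK2 the up-regulated genes were 2. Butanoate and propanoate metabolism were mixed, with 7 up-regulated against 4 down-regulated of 12 and 6 against 6 of 13. None of the 18 medians changed sign with median-of-ratios scaling.

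**Figure D5:**
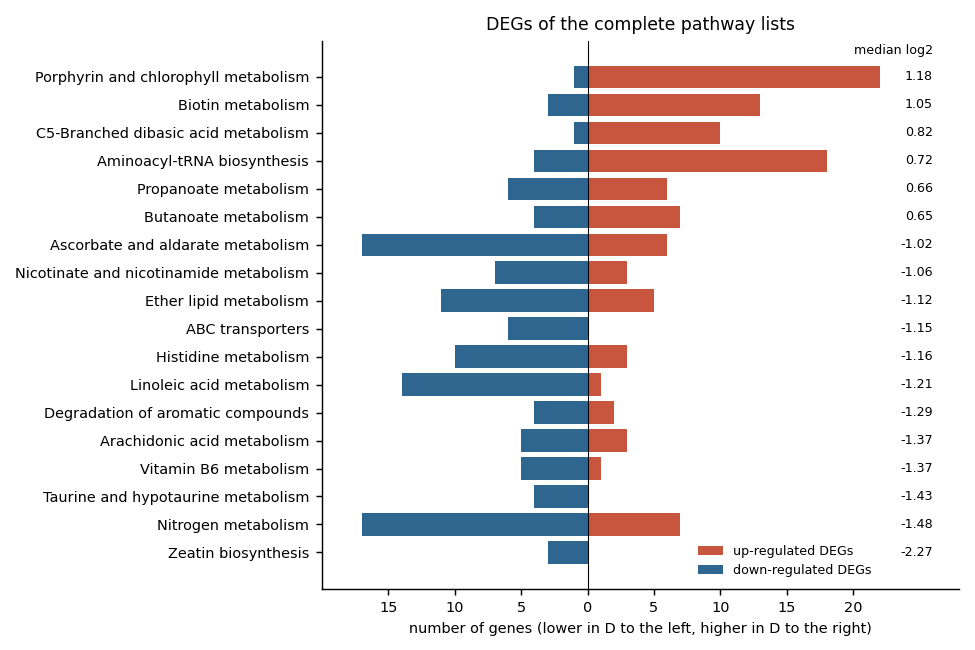
Number of up-regulated (red, to the right) and down-regulated (blue, to the left) DEGs (x axis) in 18 pathway lists (y axis), ordered by the median log2 difference between D and CK, printed at the right edge. Porphyrin and chlorophyll metabolism has 22 up-regulated genes and 1 down-regulated gene, and linoleic acid metabolism 1 up-regulated and 14 down-regulated.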

How the data were processed

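RNA-seq of leaf 3 from 3 D and 3 CK libraries was used. The deposited values are FPKM. According to the paper, the authors cleaned the reads of adapters, unknown bases and low quality, mapped the pairs with TopHat to a *B. napus* assembly, and derived FPKM from HTSeq counts per gene. The submitters' processing notes instead name Bowtie 0.12.2 and the build mm8, and the difference was not resolved. The strand setting is not given in the sources used here. Genes are named by their identifiers, and symbols come from the study's pathway list. The wording of 2 roles follows Arabidopsis. Gene positions and sequences were not used here. A symbol of the pathway list is counted with its group but not reported here.

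Whole reads were solved from the FPKM digits for 74531 of 74532 genes above 0, with 99.998% of 391487 values whole within 0.02 read. They served for depth, for counting intervals (95%, exact) and for 1 alternative, limma's voom. The main test was limma 3.58.1 (R 4.3.3) with trend on log2(FPKM + 1), two-sided, on genes above 1 FPKM in at least 3 of 6 libraries, with Benjamini-Hochberg adjustment over all 48615 genes and an adjusted p under 0.05. Adding 1 understates the change of low genes. The tests were tried on simulated data. For limma these had equal spread in both groups and few changed genes, none of them at low levels. They do not cover low genes or the balance of rises and falls. Tables and figures used Python 3.11.15, pandas 2.3.3, numpy 2.4.6, scipy 1.17.1 and matplotlib 3.10.9.

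Alternatives were a pseudocount of 0.1, no filter, a mean of at least 5 FPKM, median-of-ratios scaling, quantile normalization, the replicate block, no trend, a minimum change of 2-fold, voom, and leaving out each library. Per-library values are printed for the largest rise and fall of each pathway group and of symbols called in both directions, and for the 2 largest rises and falls of all genes with non-overlapping libraries and at least 10 FPKM in the higher group. Further per-library values (*GLN1-3*, *PAL1*, *GSH3*, the genes below the filter and single libraries) were added after their values were seen. The genes, lists and tests were chosen with earlier results of these data known. Pathway lists held only in part, and the study's own fold changes and p-values, were not used.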

Additional observations from a re-analysis of the deposited data

How the results depend on the processing

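Leaving out 1 library gave 10229 to 17261 DEGs, 3832 to 7456 up-regulated and 6348 to 9805 down-regulated, and a median log2 difference of all genes between -0.13 and -0.06. In these fits 1 group has 2 libraries and the spread is pooled over both groups. A minimum change of 2-fold left 8079 DEGs, 3279 up-regulated and 4800 down-regulated. Testing genes with a mean of at least 5 FPKM left 6598 down-regulated DEGs, with fewer genes tested. Median-of-ratios scaling moved the median of all genes to -0.0089 and quantile normalization to 0.0067. Under the other settings the counts stayed within 1.5 times those given above, with voom calling 16187 DEGs.

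With the replicate number as a block there were 12160 DEGs, and 51 up-regulated and 44 down-regulated genes in the pathway list. Same-numbered D and CK libraries deviated from their group means with correlations of -0.30, 0.06 and -0.02. Differently numbered ones ranged from -0.26 to 0.27. Deviations within a group of 3 libraries depend on each other, so these values cannot decide whether the numbers mark pairs. How the replicates were numbered is not given in the sources used here. Over single genes, 1652 of the results under alternatives stayed called or uncalled as before, 160 lost the call and 12 gained it. No called gene turned its direction. Some uncalled genes did change sign, among them *PAL1* BnaA05g07370D, at -0.54 with all libraries and 0.12 without CK1. At this depth and with 3 libraries a group, differences in genes near the filter are the least certain, and absence of a call does not show equal levels.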
